A study of Mus musculus with 28 samples.

Results

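The genes described here are the nuclear receptors and carrier proteins through which retinoic acid acts in a cell. They are the 3 retinoic acid receptor genes Rara, Rarb and Rarg, the 3 retinoid X receptor genes Rxra, Rxrb and Rxrg, the 2 cellular retinoic acid binding protein genes Crabp1 and Crabp2, and Rbp4, which encodes the carrier of retinol in plasma. These 9 genes were chosen by symbol, and all 9 are among the 43280 gene rows of the deposited tables.

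Retinoic acid receptors (RARs) are ligand-activated transcription factors that bind DNA as partners of retinoid X receptors (RXRs), and RXRs also pair with thyroid hormone, vitamin D and other nuclear receptors. CRABP proteins bind retinoic acid in the cytosol, with CRABP1 linked to its breakdown and CRABP2 to its delivery to the nucleus. In the testis, Sertoli cells are the somatic cells that nurse germ cells, and retinoic acid drives the entry of germ cells into differentiation once in each turn of the seminiferous cycle.

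Polyadenylated RNA was sequenced in 28 mouse libraries, 2 for each group. The 18 NANOS2 KO libraries are whole testes on the CD1 background, harvested on each of 9 days from 42 to 50 days after retinoic acid. Their labels describe Sertoli cells in a testis deficient in germ cells, so all somatic cells of the testis are still in the sample. The 10 sorted libraries hold RFP-positive cells of mice that are RFP heterozygote and Amh-Cre-positive, a driver active in Sertoli cells, in testes that have germ cells. They were derived from C57BL/6 x 129s4/SvJae, except that group A replicate 1 is labelled C57BL/6 x Amh-Cre. Their groups are enriched for stages XI-XII (A), I-III (B), IV-VI (C), VII-VIII (D) and IX-X (E) of the seminiferous cycle. All mice of both sets had received WIN 18,446, an inhibitor of retinoic acid synthesis, for 7 days and retinoic acid on the next day, which synchronises spermatogenesis, and were taken 42 to 50 days later. No library comes from an untreated mouse. The labels do not say whether 2 replicates are 2 animals, and p-values measure the spread between these samples, which may be technical.

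Total counts ran from 1336742 to 4370138 per NANOS2 KO library and from 1901743 to 5279746 per sorted library. Levels are CPM, the count of a gene scaled to the total count of its library, with no correction for gene length unless stated. Nanos2, the targeted gene, had 0 counts in all 18 NANOS2 KO libraries and 2 counts over the 10 sorted libraries, so it does not check the genotype. All 24 genes of a Sertoli marker list were detected in every library, with Sox9 at 168.5 CPM in NANOS2 KO testes and 98.7 CPM in sorted cells. Between 1 and 6 of 14 elongating spermatid genes were detected in a NANOS2 KO library, with Akap4, Smcp and Cabs1 at 0 in all 18. All 14 were detected in every sorted library, at a summed level of 3764 to 20300 CPM. Sorted libraries thus contain germ cell transcripts beside those of Sertoli cells.

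Stretches of DNA just before the transcription start are given for 4 of the genes, since the results turn on the 2 abundant RXR genes and on Crabp1, and since Rarb carries the response element through which RARs are known to act on this gene. They were taken from RefSeq on GRCm38.p6 and are printed 5′ to 3′ on the strand of the gene. Capitals mark a direct repeat, 2 copies of GTTCA with 6 bases between them, in Rarb and the GC box GGGCGG, on either strand, in the other 3. The positions are chr14:16575477-16575566 on the minus strand for Rarb, and on the plus strand chr9:54764648-54764747 for Crabp1, chr2:27677051-27677170 for Rxra and chr17:34031662-34031811 for Rxrb. The stretches lie within the 250 bases before a RefSeq start, and those of Crabp1 and Rxrb end at the base before the gene's start in GENCODE M21.
Rarb: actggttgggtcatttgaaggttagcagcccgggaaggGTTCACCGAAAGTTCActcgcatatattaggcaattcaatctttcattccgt
Crabp1: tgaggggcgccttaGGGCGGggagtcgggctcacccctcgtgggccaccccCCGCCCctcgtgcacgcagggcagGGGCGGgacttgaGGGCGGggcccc
Rxra: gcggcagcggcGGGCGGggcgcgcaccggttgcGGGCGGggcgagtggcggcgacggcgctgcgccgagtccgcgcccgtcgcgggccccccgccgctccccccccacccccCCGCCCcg
Rxrb: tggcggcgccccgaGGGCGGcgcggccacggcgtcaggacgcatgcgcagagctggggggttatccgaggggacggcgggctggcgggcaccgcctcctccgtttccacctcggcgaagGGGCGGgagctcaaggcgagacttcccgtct

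RefSeq windows of 300 bases, 250 before and 50 after a start, matched 8 of the 9 genes in 16 windows. The direct repeat was in 1 of the 16, that of Rarb, where it began 52 bases before the start, and in 0.0761% of all 32851 windows. The GC box was in 9 of the 16 windows, from 6 of the genes, against 35.7% of all windows. The single unit AGGTCA was in 4 of the 16 windows, those of Rara, Rarg, Rxra and Rxrg, against 16.3% of all windows. Both strands were searched, and a match is a description of the letters only.

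In both sets Rara, Rxra and Rxrb were the receptors with most reads. Rara, the RAR known to be needed in Sertoli cells for normal spermatogenesis, made up 93.2% ± 1.54 of the RAR transcripts in NANOS2 KO testes (SD, n = 18) and 96.2% ± 1.39 in sorted cells (SD, n = 10), from CPM per kb of exon. Its level was 118.8, 142.2 and 176.6 CPM (lowest, median and highest) in NANOS2 KO libraries and 87.1, 116.7 and 142 CPM in sorted libraries. The ranges overlap, with the NANOS2 KO median above the sorted one.

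Rarg, the RAR known from undifferentiated and differentiating spermatogonia, was low in both. It had 5.65, 10.2 and 14.1 CPM (lowest, median and highest) in NANOS2 KO libraries and 1.33, 4.03 and 5.77 CPM in sorted libraries. The 2 sets touch only at the edge, where 1 NANOS2 KO library of day 43 falls below the highest sorted library. Rarb, itself a known target of RARs, was near the limit of detection at all stages and days. It had 10 counts over the 18 NANOS2 KO libraries and 13 over the 10 sorted libraries, 4 of them in group B replicate 1. Exons of Rarb on chromosome 14 share 1793 bases with those of Top2b on the opposite strand, and whether counting used strand is not given in the sources used here, so these few counts are of uncertain origin.

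Rxra was abundant in NANOS2 KO testes and low in sorted cells, whereas Rxrb was abundant in both. Rxra had 90.4, 120.6 and 136.2 CPM in NANOS2 KO libraries and 14.9, 21.1 and 32.1 CPM in sorted libraries (lowest, median and highest). No value of one set came near the other. Rxrb had 64.2, 76.1 and 113.4 CPM in NANOS2 KO libraries and 70.1, 95.4 and 135.1 CPM in sorted libraries, so the sets overlap. Rxrg was scarce, with 10 counts over the NANOS2 KO libraries, 10 of 18 of them at 0, and 46 counts over the sorted libraries, each with at least 1.

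The binding proteins were at low levels. Crabp1 had 2 counts over all NANOS2 KO libraries, 1 in each library of day 45, and 342 counts over the sorted libraries. A count of 0 in a NANOS2 KO library allows up to 0.686 to 2.24 CPM, counting error only. Crabp2 had 17 counts over the NANOS2 KO libraries and 9 over the sorted ones. Rbp4, whose protein is made mainly by the liver, had 0.496, 2.64 and 6.62 CPM in NANOS2 KO libraries and 0.955, 1.82 and 3.92 CPM in sorted libraries, and the ranges overlap.

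Per kb of exon, the order of mean levels in NANOS2 KO testes was Rara at 32.9 CPM per kb ± 3.599, Rxra at 22.1 ± 2.12 and Rxrb at 19.5 ± 2.66 (SD, n = 18). The ranges of Rxra and Rxrb overlap. Within a library Rxra was the higher of these 2, except in both libraries of day 47, day 49 replicate 1 and day 50 replicate 2. In sorted cells the order was Rara at 25.9 CPM per kb ± 3.997, Rxrb at 24.7 ± 5.45 and Crabp1 at 11.7 ± 7.63 (SD, n = 10), ahead of Rxra at 4.11 ± 1.02. Rara and Rxrb are not separated there, and the short Crabp1 transcript ranks above Rxra although its plain CPM is lower.

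**Figure D1:**
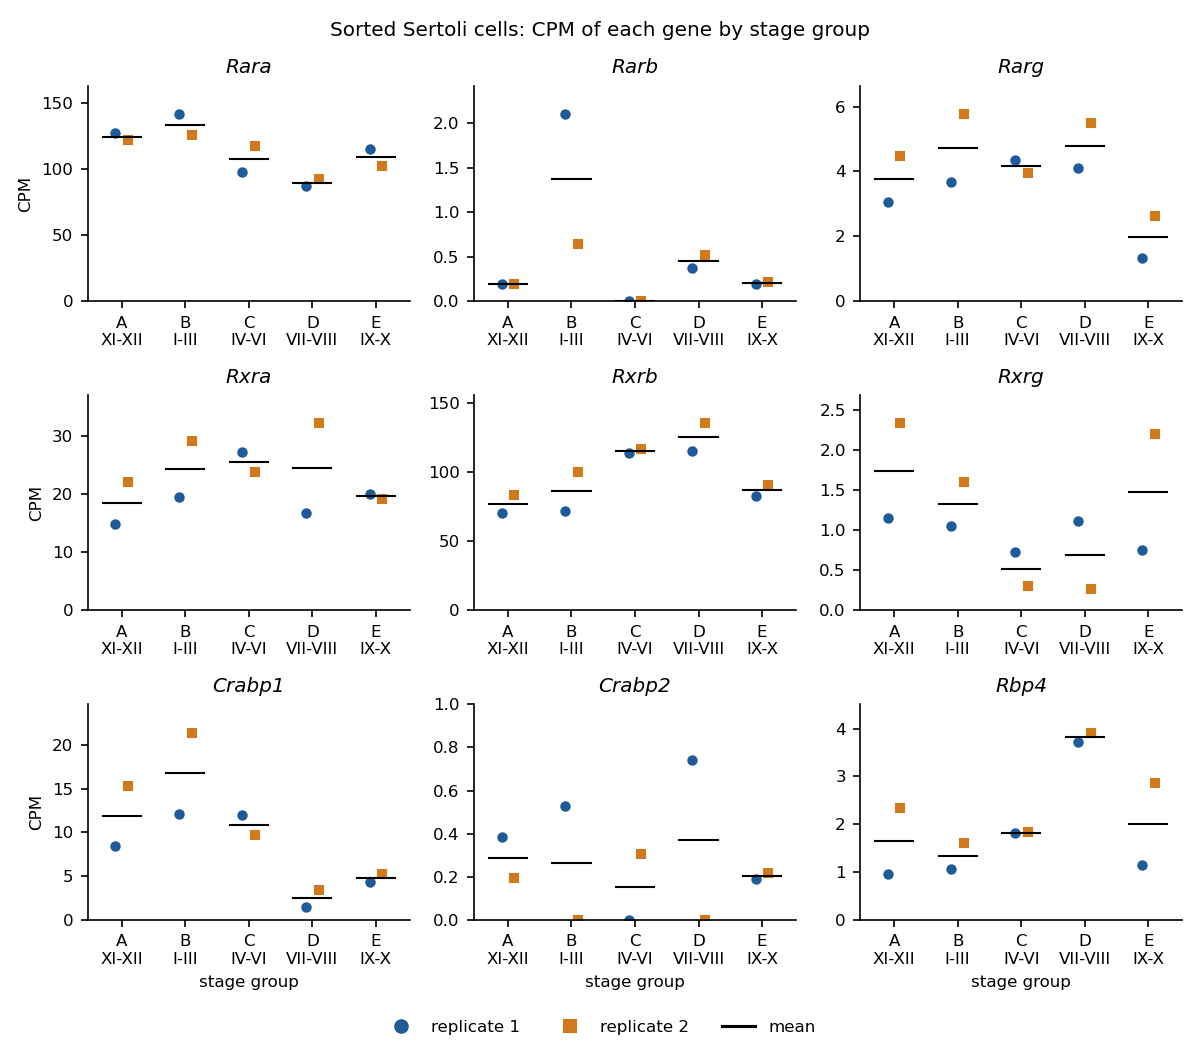
Level in CPM (vertical axes, each from 0) of each of the 9 genes in sorted cells by stage group A to E (horizontal axes). Circles are replicate 1, squares replicate 2 and short lines the mean. Crabp1 is at 1.49 and 3.40 CPM in group D, below every other library, while group D of Rxra, at 16.8 and 32.1 CPM, spans most of the range.

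The first comparison asks whether the retinoid receptors and binding proteins change along the seminiferous cycle. After the filter on low counts, 6 of the 9 genes were tested in sorted cells, with Rarb, Rxrg and Crabp2 left out. Crabp1 was the 1 gene of 6 called among the 5 stage groups, where 8.07% of 14331 genes were called (edgeR quasi-likelihood F test, Benjamini-Hochberg adjusted p under 0.05). Its level was highest in groups A to C, lower in E and lowest in D, the stages at which spermatogonia commit to differentiation and ripe spermatids are released.

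Crabp1 had 8.40 and 15.3 CPM in group A, 12.1 and 21.5 CPM in group B, 12.0 and 9.75 CPM in group C, 1.49 and 3.40 CPM in group D, and 4.36 and 5.27 CPM in group E. Both libraries of D lie below all the others, and both of E lie below all of A, B and C. The adjusted p of the stage F test was 0.0221 (edgeR quasi-likelihood). In group D against the mean of the other 4 groups, Crabp1 fell by 2.02 on the log2 scale (SE 0.47, adjusted p = 0.0176, edgeR quasi-likelihood). It was 1 of 6 genes called in that comparison, where 8.65% of all genes were called, 4.28% of them lower in D. The value in D rests on 4 counts in replicate 1 and 13 counts in replicate 2.

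The call depends on single libraries. With replicate 1 of group D left out, the stage F test gave an adjusted p of 0.109, and with replicate 2 of D left out 0.0651 (edgeR quasi-likelihood). It was 0.0606 with replicate 2 of B left out, and 0.0758 or 0.0716 with replicate 1 or 2 of E left out (adjusted p, edgeR quasi-likelihood). In group D against the others, the log2 difference of Crabp1 was -1.61 (adjusted p = 0.197, edgeR) with replicate 1 of D left out and -2.77 (adjusted p = 0.0734, edgeR) with replicate 2 left out. The remaining library of a group is then assumed to vary like the other groups.

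Marker lists of other cells moved with the stage groups too. The summed level of the 14 elongating spermatid genes was 15490 and 20300 CPM in group A, 16570 and 19520 CPM in B, 10570 and 14680 CPM in C, 3764 and 5007 CPM in D, and 12270 and 15430 CPM in E. D is again the lowest, but E overlaps C, where Crabp1 was higher than in E. The 10 macrophage genes were also lowest in D, at 148.5 and 159.9 CPM, against 222.1 to 403.9 CPM in the other groups. That sum was mostly Aif1 and Mrc1, at means of 162.8 and 125.8 CPM over the sorted libraries. The remaining macrophage genes had means of 0.129 to 1.97 CPM, so the sum says little about macrophages. Over 4 blood genes the sum was 38.2 and 39.1 CPM in D, against 104.2 to 944.5 CPM in the other groups. The 15 spermatogonia genes summed to 769.4 and 974.6 CPM in D and to 432.9 to 1047 CPM elsewhere. Most of the mean sum of 748.5 CPM was Uchl1 and Dmrt1, at 398.9 and 138.7 CPM, so it says little about spermatogonia. The 24 Sertoli genes summed to 15820 and 15960 CPM in D and to 11290 to 16810 CPM elsewhere. Clu, at a mean of 4977 CPM over the sorted libraries, was the largest part of the Sertoli sum. The part of these other cells in the Crabp1 result was not tested. In bulk samples, fewer cells of a type and less RNA per cell cannot be told apart.

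**Figure D2:**
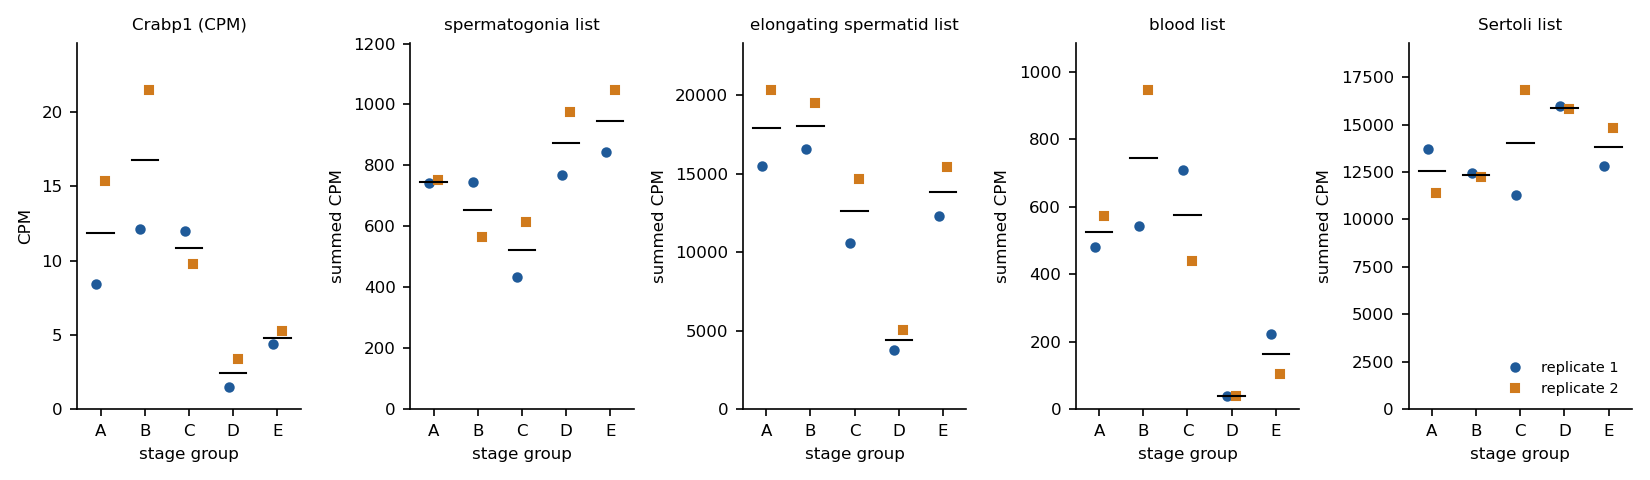
Crabp1 in CPM and the summed CPM of 4 marker lists (vertical axes, each from 0) in the sorted libraries by stage group (horizontal axes). Points are libraries and short lines group means. Crabp1, the elongating spermatid list (3764 and 5007 CPM) and the blood list (38.2 and 39.1 CPM) are lowest in group D, where the spermatogonia and Sertoli lists are not lowest. The blood list is nearly all Alas2, at a mean of 406.5 CPM over the sorted libraries.

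The genes whose profile over the 10 sorted libraries was most like that of Crabp1 were Fa2h, Foxm1 and Spem1. Their log2 CPM, each centred on its mean, differed from that of Crabp1 by a root mean square of 0.34, 0.34 and 0.35, where the median over genes was 1.07. Fa2h encodes a fatty acid hydroxylase, Foxm1 a transcription factor of dividing cells and Spem1 a protein of maturing spermatids. This is a description of the nearest profiles, with no test.

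The receptors were not called among the stage groups, and their values follow. Rxrb had 70.1 and 83.5 CPM in group A, 72.0 and 99.96 CPM in B, 113.9 and 116.4 CPM in C, 115.4 and 135.1 CPM in D, and 83.0 and 90.9 CPM in E. The 4 libraries of C and D are the 4 highest. The stage F test gave an adjusted p of 0.380, and group D against the others a log2 difference of 0.44 (SE 0.20, adjusted p = 0.223, edgeR quasi-likelihood).

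Rara had 127.4 and 122.1 CPM in group A, 142 and 125.9 CPM in B, 98.3 and 117.9 CPM in C, 87.1 and 92.5 CPM in D, and 115.5 and 102.7 CPM in E. The 2 libraries of D are the lowest, but the log2 difference of D from the others was -0.44 (SE 0.21, adjusted p = 0.234, edgeR quasi-likelihood) and the stage F test gave an adjusted p of 0.487. The ratio of Rxrb to Rara, which no scaling of libraries can change, was 0.550 and 0.684 in A, 0.507 and 0.794 in B, 1.16 and 0.987 in C, 1.33 and 1.46 in D, and 0.718 and 0.885 in E. Group D stands above all the rest and C next to it. This ratio was looked at after the values had been seen, and it has no test.

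Rarg had 3.06 and 4.46 CPM in group A, 3.68 and 5.77 CPM in B, 4.35 and 3.96 CPM in C, 4.09 and 5.49 CPM in D, and 1.33 and 2.63 CPM in E. Both libraries of E are below all others, at 7 and 12 counts. Its difference from the other groups in E was -1.18 on the log2 scale (SE 0.45, adjusted p = 0.306, edgeR quasi-likelihood). Rxra had 14.9 and 22.1 CPM in A, 19.5 and 29.2 CPM in B, 27.2 and 23.8 CPM in C, 16.8 and 32.1 CPM in D, and 20.1 and 19.1 CPM in E. The 2 libraries of D span nearly the whole range, and the stage F test gave an adjusted p of 0.912 (edgeR quasi-likelihood).

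Rbp4 had 0.955 and 2.33 CPM in group A, 1.05 and 1.60 CPM in B, 1.81 and 1.83 CPM in C, 3.72 and 3.92 CPM in D, and 1.14 and 2.85 CPM in E. The 2 libraries of D are the highest, and the log2 difference of D from the others was 1.13 (SE 0.50, adjusted p = 0.197, edgeR quasi-likelihood). Rxrg was between 0.261 and 2.33 CPM in every group, with 12 counts at most.

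In the other single comparisons 0 of the 6 genes were called. These were A, B, C and E against the mean of the others, where 1.67%, 0.0419%, 2.64% and 0.523% of all genes were called, and the steps from C to D and from D to E, where 0.628% and 3.56% were called. At an unadjusted p under 0.05, 1 of the 6 genes passed in each of these except C against the others, where 0 did. Crabp1 was nearest in B, with a log2 difference of 1.45 (SE 0.36, adjusted p = 0.200), and in D against C, with -2.10 (SE 0.54, adjusted p = 0.124, edgeR quasi-likelihood). DESeq2 gave the difference of D and C an adjusted p of 0.0453.

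Among genes that act with these receptors, 5 of 16 tested enzymes and carriers of retinoids were called in the stage F test, 1 of 6 RXR partners, 0 of 14 coregulators and 3 of 8 known targets of retinoic acid. Over all genes 8.07% were called. The lists overlap, as the targets share Stra6, Cyp26a1 and Dhrs3 with the enzymes and carriers, and Nrip1 with the coregulators. The call of Stra6 is thus counted among the enzymes and carriers and again among the targets. At an unadjusted p under 0.05, 3 of the 14 coregulators passed. DESeq2 called 9 of the 16 enzymes and carriers, 1 of the 14 coregulators and 4 of the 8 targets, beside 2000 of all 14331 genes. With either library of D left out, Aldh1a2 and Aldh1a3 lost their stage F call, and with replicate 2 of D left out so did the targets Rec8 and Tgm2. Aldh1a3 also lost it without replicate 1 of C or replicate 1 of E. The partner was Thra, the thyroid hormone receptor alpha gene, with 6.69 and 11.7 CPM in group A, 13.7 and 34.3 CPM in B, 81.6 and 100.5 CPM in C, 86.0 and 141.9 CPM in D, and 20.6 and 26.8 CPM in E (adjusted p = 0.00139, edgeR quasi-likelihood). Every library of C and D lies above every other. Its log2 difference in D from the others was 2.07 (SE 0.29, adjusted p = 0.00104, edgeR quasi-likelihood), and that call held with each library left out in turn. Thra was also called higher in C (1.70), lower in A (-2.37) and lower in E against D (-2.26) on the log2 scale. Without group C replicate 2 the call in C was lost, without group A replicate 1 the call in A, and without any single library of D or E the call between E and D.

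Of the retinoid enzymes and carriers, Cyp26b1 (which breaks down retinoic acid), Stra6 (the retinol transporter and receptor of RBP4, also a target of retinoic acid) and Fabp5 (a carrier that also binds retinoic acid) had the smallest p, with adjusted p of 0.00118, 0.00610 and 0.00908 (edgeR quasi-likelihood). Without group E replicate 2, Fabp5 lost its stage F call, while Cyp26b1 and Stra6 kept theirs in every fit with a library left out. In D against the others, 6 of the 16 were called, 4 higher and 2 lower, where 4.36% of all genes were higher and 4.28% lower. The smallest p belonged to Stra6 at 3.32 on the log2 scale, Aldh1a2, a retinoic acid synthase, at 1.68 and Cyp26b1 at -1.42. Aldh1a2 and Cyp26b1 lost that call without either library of D. Crabp1 and Cyp26b1 were thus both lower in D, yet in group C Cyp26b1 had its highest values, 175.9 and 117.0 CPM, while Crabp1 was highest in B. Cyp26b1 was higher in C by 1.63 and Fabp5 by 1.25, and Cyp26b1 was lower in E, at -1.64, and in D against C, at -2.44, each on the log2 scale and called. Without group C replicate 1 the 2 calls in C were lost, and so was that of D against C, which was lost without either library of D as well. The call in E was lost without group C replicate 1 or any library of D or E. In E against D, Aldh1a3, another synthase, was higher by 1.61 on the log2 scale (adjusted p = 0.0455, edgeR), a call kept in 4 of 10 fits with a library left out.

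Ncoa2, the most abundant coactivator, had an adjusted p of 0.959 in the stage F test (edgeR quasi-likelihood). The called targets of retinoic acid in the stage F test were Stra6, Rec8, a cohesin subunit of meiosis that germ cells express, and Tgm2, a transglutaminase. Rec8 was higher in D by 1.69 on the log2 scale (adjusted p = 0.00347, edgeR quasi-likelihood), a call lost without group D replicate 2. Tgm2 was lower in C, at -1.23 on the log2 scale, a call kept in 3 of 10 fits with a library left out, and kept its stage F call in 1 of 10.

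The second comparison asks whether these genes follow a cycle where germ cells are missing. In NANOS2 KO testes 5 of the 9 genes passed the filter, Rara, Rarg, Rxra, Rxrb and Rbp4, and 0 of the 5 were called over the 9 days, where 0.582% of 13065 genes were called (edgeR quasi-likelihood F test). At an unadjusted p under 0.05, 0 of the 5 passed there, and DESeq2 also called 0. The biological coefficient of variation was 0.122 in this set and 0.268 in the sorted set, so the knockout libraries repeat each other more closely.

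**Figure D3:**
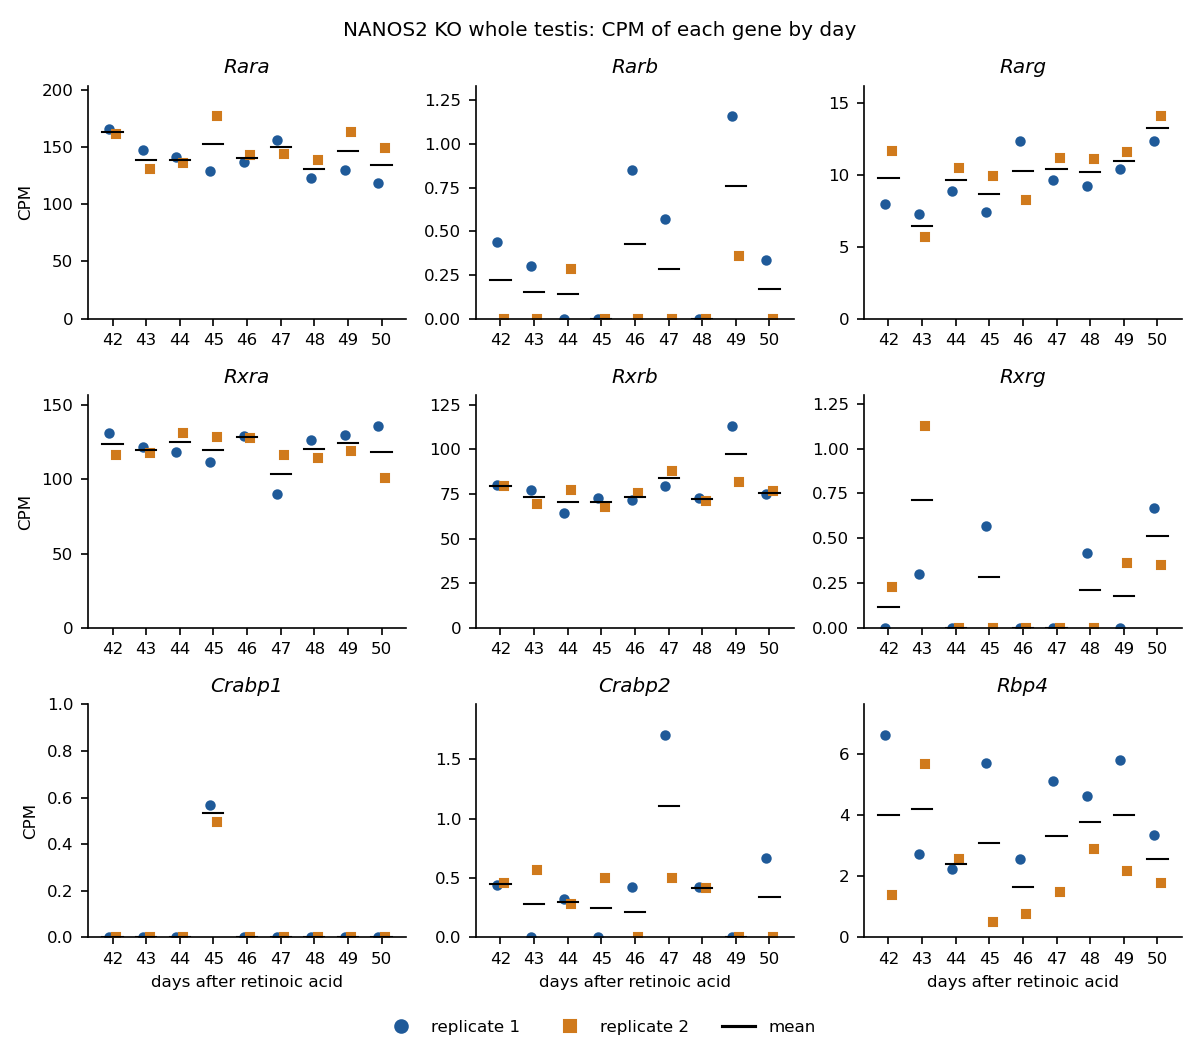
Level in CPM (vertical axes, each from 0) of each of the 9 genes in NANOS2 KO whole testes by day after retinoic acid (horizontal axes). Circles are replicate 1, squares replicate 2 and short lines the mean of a day. Rara, Rxra and Rxrb stay within 118.8 to 176.6, 90.4 to 136.2 and 64.2 to 113.4 CPM, and Crabp1 is at 0 in 16 of 18 libraries.

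Rxrb had the smallest p over the days (adjusted p = 0.571, edgeR quasi-likelihood). Its highest library was day 49 replicate 1 at 113.4 CPM, against 81.6 CPM in day 49 replicate 2, and the other libraries lay between 64.2 and 88.2 CPM. On a cycle of 8.6 days, the length of the seminiferous cycle in mice, its fitted amplitude was 0.15 on the log2 scale with a peak at day 48.8 (adjusted p = 0.526, edgeR quasi-likelihood). No gene of the table was called by the cyclic fit, which makes the background 0%, while 1262 genes had an unadjusted p under 0.05 and DESeq2 called 57. Rxra and Rara had amplitudes of 0.03 and 0.02. Rarg and Rbp4 had 0.22 and 0.25, at adjusted p of 0.652 and 0.907 (edgeR quasi-likelihood).

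A straight line over the days called 0 of the 5 genes, against 0.857% of all genes. Rarg came nearest, with a slope of 0.07 per day on the log2 scale (SE 0.03, adjusted p = 0.231, edgeR quasi-likelihood). It had 7.94 and 11.7 CPM on day 42, 7.28 and 5.65 CPM on day 43, and 12.4 and 14.1 CPM on day 50, with the middle days between 7.39 and 12.3 CPM. DESeq2 called 0 of the 5 genes by the line as well. As the 9 days cover barely 1 cycle of 8.6 days, the line and the cyclic fit overlap and are not independent. The 3 genes whose profile over the 18 libraries was most like that of Rxrb were Ptpn11, Vps18 and Calcoco1, at a root mean square of 0.09, 0.09 and 0.10 where the median over genes was 0.26.

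Of the 4 lists, edgeR's quasi-likelihood test called 0 genes over the days or by the cycle. DESeq2 called 2 of 16 enzymes and carriers and 1 of 6 targets of retinoic acid over the days, and 0 by the cycle. Over all 13065 genes it called 215 over the days and 57 by the cycle. Without the filter on low counts, edgeR called 6 of 23 enzymes and carriers, 1 of 13 partners and 3 of 11 targets over the days, and 2 of 23 enzymes and carriers and 2 of 11 targets by the cycle. That fit called 968 of 26924 genes over the days and 359 by the cycle. The line called Stra6, with a slope of 0.32 per day on the log2 scale (adjusted p = 0.0172, edgeR quasi-likelihood). Stra6 was at 2.65 and 3.43 CPM on day 42 and at 24.4 and 8.44 CPM on day 50. Its call was lost without day 42, 43 or 50 replicate 1. Abundant genes of these lists, Aldh1a1, Cyp26b1, Thra, Nr1h2, Ncoa2, Tgm2 and Nrip1, had adjusted p from 0.107 to 0.838 in the day F test (edgeR quasi-likelihood).

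The third comparison sets NANOS2 KO whole testes against sorted Sertoli cells. It shows which receptors are relatively more or less frequent in a germ cell-free testis. Strain, germ cells, cell sorting and the other somatic cells differ along with the genotype, and their parts in a difference cannot be told apart. Of the 6 genes tested in both sets, Rxra and Rarg were higher and Rxrb and Crabp1 lower, and Rara and Rbp4 were not called. The background is high: 85.1% of 15777 genes were called, 38% higher and 47% lower, so 4 called of 6 is no excess.

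Rxra was higher by 2.04 on the log2 scale (SE 0.11, adjusted p = 6.18e-15, edgeR quasi-likelihood), and all 18 NANOS2 KO libraries lay above all 10 sorted ones. Rarg was higher by 1.02 (SE 0.16, adjusted p = 2.59e-06, edgeR). Rxrb was lower, at -0.71 (SE 0.08, adjusted p = 5.70e-09, edgeR). The median log2 difference over all genes was -0.17 in this fit, which scales libraries by TMM. Scaled to library totals, it was 0.21, and scaled to the Sertoli list it was -0.34, so the zero point moves with the scaling. The Sertoli list scaling rests largely on Clu, its most abundant gene, at means of 10740 CPM in NANOS2 KO testes and 4977 CPM in sorted cells.

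Under library totals and under the Sertoli list, Rxra was higher by 2.42 and 1.86, Rarg higher by 1.40 and 0.85, and Rxrb lower, at -0.32 and -0.88. None of the 3 changed direction. Rara is the exception. Its log2 difference was -0.03 with TMM scaling (SE 0.08, adjusted p = 0.756), 0.36 with library totals (adjusted p = 8.53e-05) and -0.19 with the Sertoli list (adjusted p = 0.0407, edgeR quasi-likelihood), so no direction can be given. For Rbp4 it was 0.20 (SE 0.34, adjusted p = 0.580, edgeR).

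**Figure D4:**
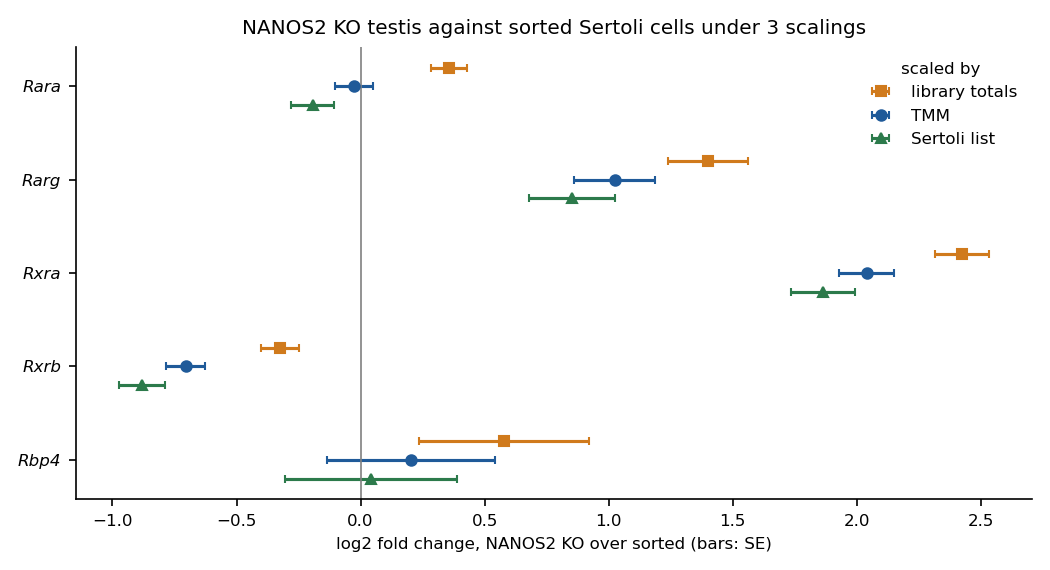
Log2 fold change of NANOS2 KO testes over sorted cells (horizontal axis, bars are standard errors) for 5 tested genes under 3 scalings of the libraries. Rxra and Rarg lie right of 0 and Rxrb left of 0 under all 3, while Rara is at 0.36, -0.03 and -0.19. Crabp1, with 2 counts in all NANOS2 KO libraries, is not plotted.

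Crabp1 was called lower in NANOS2 KO testes (adjusted p = 1.42e-11, edgeR quasi-likelihood). As its 2 counts leave the fold poorly fixed, pooled counts give the better measure: 0.0428 CPM in NANOS2 KO testes and 9.05 CPM in sorted cells, a sorted level 212 times as high (exact 95% interval 58.1 to 1754, counting error only). Against group D, where Crabp1 is lowest, the level in D was 61.0 times that of NANOS2 KO testes (14.5 to 545). Rxrg, below the filter, had a pooled sorted level 5.69 times that of NANOS2 KO testes (2.83 to 12.7), and in group D alone 2.87 times (0.658 to 9.96), an interval that includes no difference.

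The balance within the RXR family does not depend on the scaling of libraries. Per kb of exon, Rxra made up 53.0% ± 3.84 of RXR transcripts in NANOS2 KO testes (45.2 to 57.9%, SD, n = 18) and 14.1% ± 2.17 in sorted cells (9.41 to 17.1%, SD, n = 10). The difference was 38.9 percentage points, with a two-sided permutation p of 2e-05, the smallest that 100000 resamples can give (4e-05 adjusted over the 2 shares tested). The shares tested, of Rxra and Rarg, belong to genes already called higher in NANOS2 KO testes, so their p-values are no independent support. Rxrb made up 46.7% ± 3.89 in NANOS2 KO testes and 84.1% ± 2.64 in sorted cells. Within the sorted groups the mean share of Rxra ran from 12.1% in D to 16.6% in B, and within the knockout days from 47.2% on day 47 to 56.3% on day 44, so no stage or day approaches the other set.

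**Figure D5:**
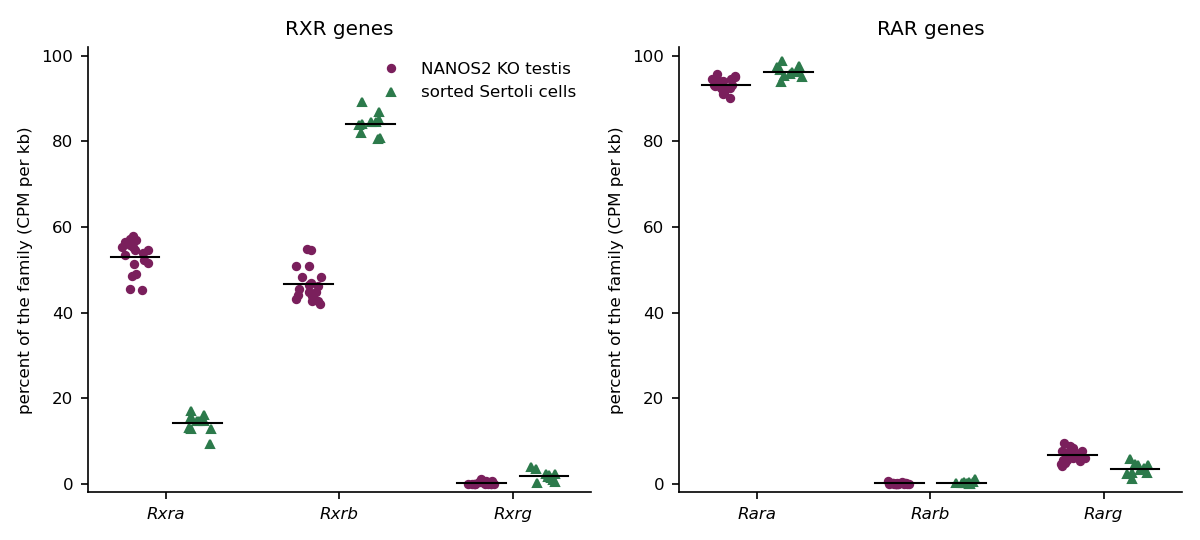
Share of each gene in the RXR family (left) and the RAR family (right), as percent of the CPM per kb of the family (vertical axes), with NANOS2 KO testes left of sorted cells for each gene. Circles are NANOS2 KO libraries, triangles sorted libraries and short lines means. Rxra is at 45.2 to 57.9% in NANOS2 KO libraries and at 9.41 to 17.1% in sorted libraries, and Rara makes up over 90% of the RAR family in every library.

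In the RAR family the share of Rarg was 6.65% ± 1.48 in NANOS2 KO testes (SD, n = 18) and 3.47% ± 1.34 in sorted cells (SD, n = 10), with a two-sided permutation p of 4e-05. The ranges overlap, at 4.25 to 9.63% in NANOS2 KO testes and 1.16 to 5.70% in sorted cells. The family totals were 35.3 CPM per kb ± 3.67 (RAR) and 41.6 ± 3.501 (RXR) in NANOS2 KO testes, and 26.9 ± 4.03 and 29.3 ± 6.03 in sorted cells. In sorted cells the 2 totals are not separated beyond their spread. The RAR total was the higher one in both libraries of A and in replicate 1 of B and of E, and the RXR total in the other sorted libraries.

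Against group D alone, the libraries with the fewest elongating spermatid reads, 4 of the 6 genes were called, where 72.4% of all genes were, 29.8% higher and 42.6% lower. Rxra was higher in NANOS2 KO testes by 1.93 (SE 0.22, adjusted p = 3.79e-08) and Rxrb lower, at -1.05 (SE 0.13, adjusted p = 1.93e-07, edgeR quasi-likelihood), on the log2 scale. Crabp1 was lower (adjusted p = 1.45e-06, edgeR). Rarg was higher by 0.68 (SE 0.31, adjusted p = 0.0499, edgeR), a call kept in 13 of 28 fits with a library left out, and Rara was at 0.33 (SE 0.15, adjusted p = 0.0506) and passed in 11 of those 28 fits. This comparison and the one above share the NANOS2 KO libraries and those of group D.

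Markers of other somatic cells differ between the sets as well. The 8 Leydig cell genes summed to 4409 CPM (2694 to 7036) in NANOS2 KO testes, all 8 detected in each library, and to 28.8 CPM (13.97 to 50.7) in sorted cells, with Insl3 and Lhcgr at 0 in all 10. In NANOS2 KO testes 9 myoid genes summed to 1193 CPM, 10 macrophage genes to 896.7 CPM, 8 endothelial genes to 137.5 CPM and 8 stroma genes to 1546 CPM. In sorted cells these sums were 401.8 CPM for myoid, 294.1 CPM for macrophage, 24.8 CPM for endothelial and 134.2 CPM for stroma genes. Most of the sorted sums came from Mylk (181.7) and Actg2 (158.8) for myoid, Aif1 (162.8) and Mrc1 (125.8) for macrophage and Fbln1 (97.98 CPM) for stroma. Actg2, Aif1 and Fbln1 were lower in NANOS2 KO testes, at 8.15, 8.98 and 7.54 CPM, and the other genes of those lists higher. The sorted sums thus do not measure the share of these cells. The 24 Sertoli genes summed to 19940 CPM in NANOS2 KO testes and 13740 CPM in sorted cells. Of these sums Clu alone held 10740 and 4977 CPM. Other genes of the list went either way, with Sox9 and Inha higher and Aard and Rhox5 lower in NANOS2 KO testes. Sums of germ cell genes were lower in NANOS2 KO testes. For 15 spermatogonia genes they were 266.3 CPM, against 748.5 CPM in sorted cells, and for 18 spermatocyte genes 105.1 CPM, against 2361 CPM. Kit, Zbtb16 and Gfra1 were higher in NANOS2 KO testes, at 111.4, 19.7 and 1.83 CPM, against 14.5, 7.65 and 1.58 CPM. Sohlh1, Sall4 and Rhox13 were at 0 in all 18 NANOS2 KO libraries. Mns1 held 95.8 CPM of the spermatocyte sum there. These sums thus do not measure how many germ cells remain. The part of these cells in the results on Rxra, Rarg, Rxrb and Crabp1 was not tested.

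The partners of these receptors were compared in the same way. Of 9 tested RXR partners 5 were higher in NANOS2 KO testes and 0 lower, with a median log2 difference of 1.46 beside -0.17 for all genes. Over all genes 38% were higher and 47% lower, so 5 called of 9 is no excess of calls. With library totals 8 were higher and 0 lower, and with the Sertoli list 5 were higher and 2 lower. The median over all genes was then 0.21 and -0.34. Thra had 178.5 CPM ± 26.7 in NANOS2 KO testes and 52.4 CPM ± 46.6 in sorted cells. Thrb, the thyroid hormone receptor beta gene, had 24.7 CPM ± 4.46 in NANOS2 KO testes and 0.986 CPM ± 0.62 in sorted cells. Ppara, a fatty acid receptor, had 12.8 CPM ± 2.37 in NANOS2 KO testes and 1.65 CPM ± 0.73 in sorted cells (SD, n = 18 and 10). The log2 differences were 1.94 for Thra, 4.29 for Thrb and 2.65 for Ppara, and the largest adjusted p of the 3 was 1.90e-12 (edgeR quasi-likelihood). Against group D alone, 5 of the 9 partners were called higher and 2 lower. There Thrb and Ppara were higher by 4.58 and 2.21 on the log2 scale, and Thra was not called.

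Of the 14 coregulators 10 were higher and 2 lower, with a median log2 difference of 0.95, and with library totals 12 were higher and 1 lower. The smallest p belonged to the coactivators Ncoa1 (1.75) and Ep300 (1.76) and to Nsd1 (1.47), a histone methyltransferase that binds nuclear receptors. Of 18 retinoid enzymes and carriers 8 were higher and 6 lower, with a median log2 difference of -0.02. With library totals 9 were higher and 5 lower, and with the Sertoli list 7 higher and 9 lower. Aldh1a1, which makes retinoic acid from retinal, had 2144 CPM ± 282 in NANOS2 KO testes and 455.2 CPM ± 154 in sorted cells, and Cyp26b1 had 391.7 CPM ± 93.2 in NANOS2 KO testes and 76.2 CPM ± 58.7 in sorted cells (SD, n = 18 and 10). Adh1, a retinol dehydrogenase of several tissues, had 77.3 CPM in NANOS2 KO testes and 0.646 CPM in sorted cells. Of the 8 tested targets of retinoic acid 3 were higher and 5 lower, with Tgm2 at 2.96, Dhrs3, which turns retinal back to retinol, at 1.88 and Rec8 at -4.72 on the log2 scale. Most genes were called in this comparison, 38% higher and 47% lower. With library totals 3 of the 8 targets were higher and 4 lower.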

How the data were processed

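Per the labels' protocols, polyadenylated RNA was made into libraries with an Ion Total RNA-seq kit and read on an Ion Proton; the protocol names sorted germ cells and whole testes as its inputs. The submitters' processing notes list Bowtie, TopHat, Cufflinks and mm10. For versions, the counting step and its use of strand the sources used here give nothing. Whole-number read counts for 43280 rows were deposited. What the file headers call FPKM is CPM: the deposited value is the count over its library total (to within 0.0005) and holds no gene length, so analyses planned for FPKM used CPM. Where 2 knockout columns had the same day 42 header, the CPM column with equal values gave the replicate. Dates had replaced 27 symbols. No replicate pair matched within sampling noise.

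For the tests, filterByExpr removed low counts, TMM set the library scale, and quasi-likelihood F tests came from edgeR 4.0.16 (R 4.3.3). They covered 14331 (sorted), 13065 (knockout) and 15777 (joint) genes. P-values were adjusted over all of these by the method of Benjamini and Hochberg, and genes under 0.05 were called. SE is the log2 difference over the square root of F. The tests were first run on simulated counts. A count of 3 equals 0.686 to 2.24 CPM in the knockout and 0.568 to 1.58 CPM in sorted libraries, and intervals and floors cover counting error only. Exon lengths and positions come from GENCODE M21 on GRCm38, which holds 91.1% of the symbols, and promoter letters from RefSeq on GRCm38.p6.

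The members and gene lists were chosen with earlier results of these data known. All 9 members are given. Of each other list, up to 3 called genes with the smallest p are named per comparison, or else the 2 most abundant. Some genes that this rule names are not reported here. The 3 genes nearest in profile come from tested genes whose mean log2 CPM (prior count 2) reached 4. Other settings tried were RLE in place of TMM, counts without a filter, DESeq2 1.42.0, a block for the replicate number, limma 3.58.1 with trend on log2(CPM + 1) or log2(CPM + 0.1), scaling to the Sertoli list, and each library left out in turn. Scaling to library totals, the permutation tests of the Rxra and Rarg shares, and shares from plain CPM were added after the data were seen.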

Additional observations from a re-analysis of the deposited data

How the results depend on the processing

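The number of the 9 genes called was unchanged under every alternative in the comparisons not named here, apart from those with NANOS2 KO, where it was 4 to 6 (against sorted cells) and 3 to 5 (against group D). For the 5 stage groups it was 0 with limma on log2(CPM + 1) with no filter, where Crabp1 had an adjusted p of 0.0945, and 0 to 1 with a library left out. For group D against the others it was 0 to 1 with a library left out. With no filter Crabp1 made it 1 for group B against the others, and with no filter or DESeq2 it was 1 for D against C. The cause was not tested.

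Differences not called under the reported settings turned sign in places. For NANOS2 KO against sorted cells, Rara was at 0.0417 (log2) with RLE scaling and 0.0419 with DESeq2, at 0.35 with limma on log2(CPM + 1), with or without the filter, and on log2(CPM + 0.1), and at 0.36 with library totals. The slope of Rbp4 over the knockout days was 0.0025 with limma on log2(CPM + 0.1). With a library left out, Rarg ran from -0.24 to 0.34 in A against the others and from -0.0288 to 0.38 in D against C. Rbp4 ran from -1.06 to 0.23 in A, -0.29 to 0.0297 in C, -0.76 to 0.43 in E, -0.056 to 0.048 per knockout day and -0.0704 to 0.41 for NANOS2 KO against sorted cells. Rxra ran from -0.15 to 0.44 in B, -0.41 to 0.52 in D, -0.61 to 0.31 in D against C, -0.69 to 0.23 in E against D and -0.013 to 0.0050 per knockout day. Rxrb ran from -0.44 to 0.0374 in B and -0.0073 to 0.21 in D against C. Rara ran from -0.26 to 0.0850 in C, -0.22 to 0.0668 in E and -0.0593 to 0.0493 for NANOS2 KO against sorted cells.

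Correlations of the deviations of same-numbered replicates ran from -0.11 to 0.43 between sorted groups, over 0.1 in 6 of 10 pairs of groups (median 0.197), and from -0.27 to 0.13 between knockout days, over 0.1 in 1 of 36. Not every pair was over 0.1 and the labels tie no number to an animal or day, so the samples were not treated as paired; the sorted values are a hint from the data only. With the replicate number as a block, the number of the 9 genes called was 1 for the stage groups and for D, 0 in the other stage and day comparisons and 4 against sorted cells and against D, with Crabp1 at an adjusted p of 0.00933 in the stage F test. Over all genes the block gave 1670 calls for the stage groups (1156 without it), 1661 for D (1239), 561 for C (379), 477 for A (240), 24 for B (6), 170 for E (75), 178 for D against C (90), 874 for E against D (510) and 65 for the knockout line (112). The share of Rxra was 60.8% in NANOS2 KO testes and 18.5% in sorted cells from plain CPM.

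Over all genes, counts of calls ranged from 386 to 2764 for the stage groups (1156 as reported), 68 to 901 for A (240), 0 to 307 for B (6), 90 to 988 for C (379), 289 to 1932 for D (1239), 0 to 651 for E (75), 0 to 617 for D against C (90), 37 to 1180 for E against D (510), 0 to 968 for the knockout days (76), 4 to 215 for their line (112) and 0 to 359 for their cycle (0). With 2 libraries a group, and Rarb, Rxrg and Crabp2 at 4, 12 and 3 counts a library at most, those 3 genes were tested only without the filter, where none was called among stages or days. In that fit Rxrg was called lower in NANOS2 KO testes than in sorted cells.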
